A study of Bos grunniens with 6 samples.

Results

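ERBB4, NGFR and EPHA2 are cell-surface receptors, and their transcripts were followed in the testes of yaks before and after sexual maturity. The receptors were taken by gene ID, ENSBGRG00000003801 for ERBB4, ENSBGRG00000023500 for NGFR and, for EPHA2, the ID on the peak that starts at base 198622 of chromosome 2, which was ENSBGRG00000002216. They are 3 of 20953 genes in the expression table, and they hold 6 of the 16318 m6A peaks in the table of compared peaks. The study had singled them out on these same animals, so their direction of change is not independent evidence.

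Testicular parenchyma was collected from 3 juvenile yaks of 6 months (Y6M) and 3 sexually mature yaks of 30 months (Y30M), all healthy males. Polyadenylated RNA of each animal gave 2 libraries, one immunoprecipitated with an antibody against N6-methyladenosine (m6A), the most abundant internal mark of mRNA, and one input library without the antibody. Expression is given in FPKM, the fragments of a gene scaled by its transcript length and by the mapped reads, for the 6 input libraries. Each animal stands for itself and no animals were stated to be pooled. The samples are pieces of whole tissue, and FPKM is a share of each library. A smaller share of a cell type in the tissue, which needs no loss of its cells, and less RNA per cell cannot be told apart.

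ERBB4 is a receptor tyrosine kinase of the ErbB family that binds neuregulins, and it can pair with ERBB3, which has little kinase activity of its own. NGFR is the low-affinity neurotrophin receptor. It binds all neurotrophins, has no kinase domain, and works with partners such as the Trk kinases, sortilin (SORT1) and the Nogo receptor (RTN4R). EPHA2 is an Eph receptor tyrosine kinase that is activated by membrane-bound ephrin-A ligands, EFNA1 among them, on neighbouring cells.

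The whole fragments behind the FPKM values could be recovered for 18532 of 18572 genes, to within 0.01 fragment. The smallest step between values was taken as 1 fragment, and if it stood for several, all fragment counts here would be larger by that factor and their intervals narrower. They summed to between 20471477 and 28030341 per Y6M library and between 30091287 and 32532535 per Y30M library. The first principal component carried 87.3% of the variance and separated the ages. The second carried 7.38%, and on it both libraries of replicate 3 (-43.0 and -52.5) stood apart from the other 4 (13.0 to 36.2). The receptors' own values are therefore also given without them.

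All 3 receptors had lower expression in the mature testis, and for none of them did the Y6M and Y30M libraries overlap. On the FPKM scale the mean level was 19.4-fold lower for ERBB4, 14.5-fold lower for EPHA2 and 5.37-fold lower for NGFR. Of all 19477 genes tested, 16.4% were called lower in Y30M, 25.3% were called higher, and 21.9% had every Y30M library below every Y6M library. Every library of one age was above every library of the other for 54.1% of genes, in either direction. Genes were called from a limma fit on log2(FPKM + 1) at an adjusted p up to 0.05 together with a change of 1.5-fold or more.

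ERBB4 measured 4.97, 5.39 and 6.90 FPKM in Y6M replicates 1, 2 and 3, and 0.259, 0.360 and 0.270 FPKM in Y30M replicates 1, 2 and 3. The lowest juvenile library was thus far above the highest mature library, and among juveniles replicate 3 was the highest. The values rest on 578, 711 and 662 fragments in Y6M and on 33, 49 and 36 fragments in Y30M, so that counting error alone spans 0.178 to 0.363 FPKM in Y30M replicate 1 (95% Poisson interval). The mean fell from 5.75 ± 1.02 to 0.296 ± 0.0555 FPKM (SD, n = 3 each), which is -2.37 as a log2 fold change on the log2(FPKM + 1) scale (limma adjusted p = 1.98e-04, standard error 0.23). This scale understates the change of low genes, and the log2 ratio of the mean FPKM values was -4.28.

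NGFR measured 10.7, 11.2 and 7.89 FPKM in the Y6M replicates and 2.49, 1.57 and 1.48 FPKM in the Y30M replicates. Here replicate 3 was the lowest library of each age, and the smallest juvenile value was still above the largest mature value. Between 1162 and 2262 fragments stood behind the juvenile values and between 303 and 489 behind the mature ones. The mean fell from 9.91 ± 1.77 to 1.85 ± 0.563 FPKM (SD, n = 3 each). In the limma fit this was -1.94 on the log2 scale, with a standard error of 0.30 and an adjusted p of 0.00177.

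EPHA2 measured 23.3, 21.1 and 16.3 FPKM in the Y6M replicates and 1.82, 1.15 and 1.21 FPKM in the Y30M replicates. It was the highest of the receptors in every juvenile library. The values rest on 1522 to 2704 fragments in Y6M and 152 to 226 in Y30M. Its mean of 20.2 ± 3.57 FPKM in Y6M fell to 1.39 ± 0.373 FPKM in Y30M (SD, n = 3 each). The limma estimate was -3.15 on the log2 scale, with a standard error of 0.28 and an adjusted p of 1.56e-04.

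**Figure D1:**
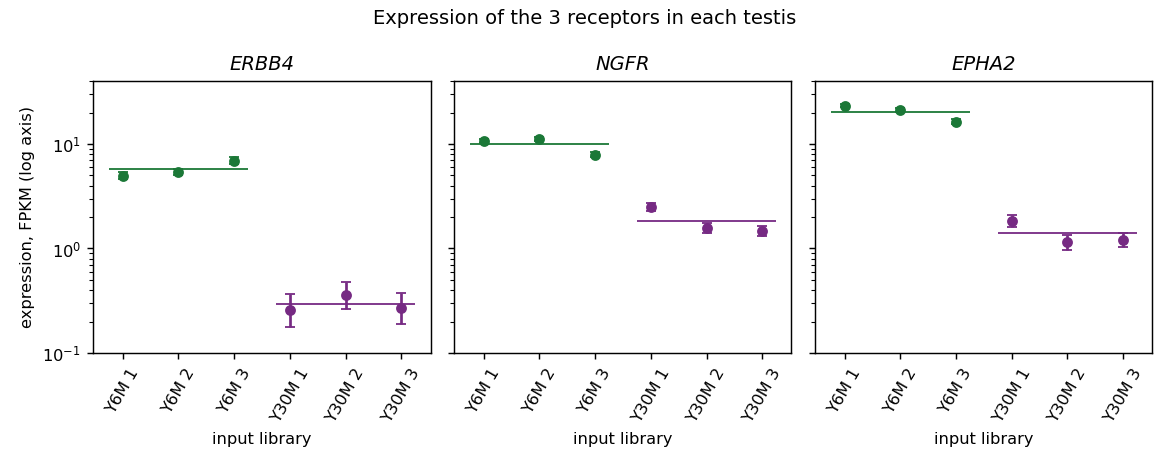
Expression of ERBB4, NGFR and EPHA2 in FPKM (vertical log axis) in each of the 6 input libraries, with green points for Y6M and purple points for Y30M. Bars are 95% Poisson intervals of the fragment counts and lines are group means. The Y30M points lie below all Y6M points for each receptor, and ERBB4 has the widest intervals in Y30M, where it rests on 33 to 49 fragments.

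Without both libraries of replicate 3, the log2 fold changes were -2.24 for ERBB4, -1.99 for NGFR and -3.23 for EPHA2. All 3 receptors stayed called. With a pseudocount of 0.1 in place of 1, ERBB4 moved to -3.88, NGFR to -2.38 and EPHA2 to -3.78. A fit to the recovered fragments, which uses no pseudocount on FPKM, gave -4.41, -2.62 and -4.04. With the replicate number as a block, 9274 genes were called in place of 8129, of which 3816 in place of 3192 were lower in Y30M. An exact permutation test on a single gene cannot go below p = 0.1 with 3 yaks against 3, and it gave 0.1 for each receptor.

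Among all genes tested, 202 (1.04%) had a log2 fold change as low as that of EPHA2 or lower, against 540 (2.77%) for ERBB4 and 988 (5.07%) for NGFR. By the log2 ratio of mean FPKM, over genes with a Y6M mean of 1 FPKM or more, the shares were 1.09% for ERBB4, 1.79% for EPHA2 and 7.97% for NGFR, so the place of ERBB4 and EPHA2 depends on the scale. The order of the receptors by level also differed between the ages. In Y6M every library of EPHA2 was above every library of NGFR, and every NGFR library was above every ERBB4 library. In Y30M the ranges of NGFR (1.48 to 2.49 FPKM) and EPHA2 (1.15 to 1.82 FPKM) overlapped, and ERBB4 was below both. Within each library, log2(FPKM + 1) of NGFR minus that of EPHA2 moved from -0.96 ± 0.10 in Y6M to 0.24 ± 0.07 in Y30M (SD, n = 3 each), a difference of 1.20 (two-sided exact permutation p = 0.1, the smallest possible, and 0.3 after adjustment over 3 pairs of receptors). The difference in change between ERBB4 and NGFR was -0.43 (exact p = 0.5, adjusted 0.5), and that between ERBB4 and EPHA2 was 0.77 (exact p = 0.2, adjusted 0.3). These tests compare unpaired libraries, and within replicate numbers the exact p cannot go below 0.25. The difference of ERBB4 against EPHA2 turned to -0.10 with a pseudocount of 0.1, so the order of change of ERBB4 and EPHA2 depends on the pseudocount.

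**Figure D2:**
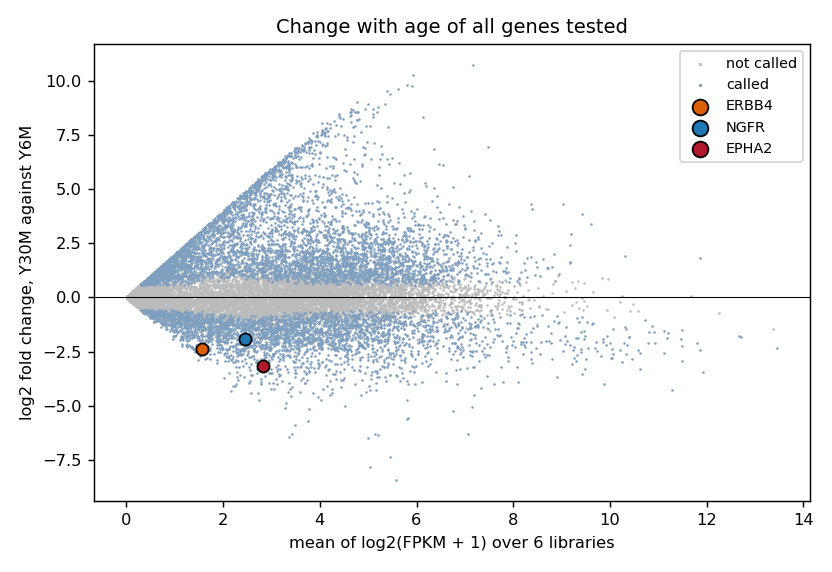
Log2 fold change of Y30M against Y6M (vertical) plotted against the mean of log2(FPKM + 1) over the 6 libraries (horizontal) for all 19477 genes tested, with called genes in blue and others in grey. The receptors lie at -2.37 (ERBB4), -1.94 (NGFR) and -3.15 (EPHA2), among the called genes below zero.

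The ligands, relatives and signalling partners of the receptors were read from lists of 92 further symbols. Only 17 of these could be paired with a gene ID, and 13 of the 17 are named only in tables of genes that the study had picked for a difference, so the counts below are not independent evidence. Of the 17 partners, 5 rose, 4 fell and 8 did not pass the test, with a median log2 fold change of -0.06 against 0.04 over all genes. Without Y6M replicate 2, 2 partners in place of 4 were called lower. The share called was 52.9%, beside 52.1% of all named genes and 41.7% of all genes tested.

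In the ErbB family, 2 of the 4 receptors listed, ERBB3 and ERBB4, had a name that could be paired. ERBB3 went the opposite way to ERBB4. It measured 0.108, 0.564 and 0.290 FPKM in the Y6M replicates and 2.88, 2.64 and 2.51 FPKM in the Y30M replicates. ERBB3 rose by 1.49 on the log2 scale (limma adjusted p = 6.85e-04, standard error 0.19), and its groups did not overlap. ERBB4 was therefore the higher of the pair in every juvenile library and the lower in every mature library. The within-library difference of log2(FPKM + 1), ERBB4 minus ERBB3, went from 2.36 ± 0.30 to -1.505 ± 0.107 (SD, n = 3 each; exact p = 0.1, the smallest possible).

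Partners that act on ErbB receptors moved in both directions. LRIG3, a transmembrane protein of a family that modulates receptor tyrosine kinases, fell from 15.3 to 5.26 FPKM (log2 fold change -1.45). ERRFI1, a feedback inhibitor of ErbB kinases, fell from 26.9 to 11.7 FPKM (-1.07). CBL, a ubiquitin ligase that targets activated receptors for degradation, rose from 8.91 to 22.9 FPKM (1.29). The call of ERRFI1 (limma adjusted p = 0.0375) was lost on leaving out any 1 library other than Y6M replicate 3, and that of LRIG3 (adjusted p = 0.0153) was lost without Y6M replicate 2 (adjusted p = 0.0672). The call of ERRFI1 was also lost with FPKM rescaled to TPM (adjusted p = 0.0766) and with all genes kept in the fit (adjusted p = 0.0644). None of the 11 ErbB ligands listed, neuregulins included, had a name that could be paired.

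In the neurotrophin system, the ligand NTF3 and the co-receptor SORT1 rose where NGFR fell. NTF3 (neurotrophin-3) measured 0.416, 0.285 and 0.616 FPKM in the juveniles and 5.24, 4.61 and 3.18 FPKM in the mature yaks, with no overlap (a log2 change of 1.88, limma adjusted p = 8.11e-04, standard error 0.24). SORT1, which forms a complex with NGFR to bind proneurotrophins, measured 36.0, 38.1 and 29.2 FPKM in the juveniles and 84.7, 79.4 and 79.8 FPKM in the mature yaks (1.22, standard error 0.18, adjusted p = 0.00145). NTRK3, the kinase receptor of neurotrophin-3, was low in every library, at 0.210 to 0.824 FPKM in Y6M and 0.671 to 1.11 FPKM in Y30M. Its log2 fold change of 0.41 was not called (limma adjusted p = 0.108), while without both libraries of replicate 3 it was 0.68 (adjusted p = 0.0153).

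RTN4R, the Nogo receptor that can use NGFR as its signalling subunit, had overlapping groups of 8.11 to 15.4 FPKM and 1.38 to 9.65 FPKM. Its log2 fold change of -1.18 was not called (limma adjusted p = 0.143). It was called with the replicate number as a block (adjusted p = 0.0243) and in the fit to recovered fragments (-1.61, adjusted p = 0.0334). Without Y30M replicate 3 its log2 fold change was -0.54 (adjusted p = 0.279), and without both libraries of replicate 3 it was -0.80 (adjusted p = 0.0757). Set against the mean of NTRK3, SORT1 and RTN4R in the same library, NGFR went from 0.30 ± 0.12 to -1.79 ± 0.31 in log2(FPKM + 1) (SD, n = 3 each; exact p = 0.1). None of the 15 listed NGFR adaptors could be paired with an ID.

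EPHA2 was called lower, and none of the 4 other Eph receptors with a name was called. EPHA3, EPHA6, EPHA7 and EPHB6 had log2 fold changes of -0.06, 0.08, -0.43 and 0.02, and their groups overlapped in each case. EPHA7 reached 5.55 FPKM in Y6M replicate 3, and EPHB6 reached 7.29 FPKM in Y6M replicate 2 and 7.03 FPKM in Y30M replicate 1, whereas EPHA6 stayed at or below 0.337 FPKM in all 6. EPHA2 minus the mean of these 4 receptors went from 2.96 ± 0.26 to -0.09 ± 0.25 in log2(FPKM + 1) (SD, n = 3 each; exact p = 0.1). EPHA2 thus stood well above the mean of these 4 before maturity and near it after. Of the 14 Eph receptors listed, only 5, EPHA2 included, had a name that could be paired.

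The ephrin ligand EFNA1 measured 8.33 to 11.4 FPKM in Y6M and 5.93 to 13.7 FPKM in Y30M, and its log2 fold change of -0.15 was not called (limma adjusted p = 0.748). Among proteins that carry Eph signals to the cytoskeleton, VAV2 fell from 12.4 to 2.97 FPKM (log2 fold change -1.77) and the adaptor NCK2 from 41.9 to 13.7 FPKM (-1.56). TIAM1, a Rac exchange factor, rose from 1.78 to 17.7 FPKM (2.75, limma adjusted p = 3.39e-04). ARHGAP39 was not called (-0.06).

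**Figure D3:**
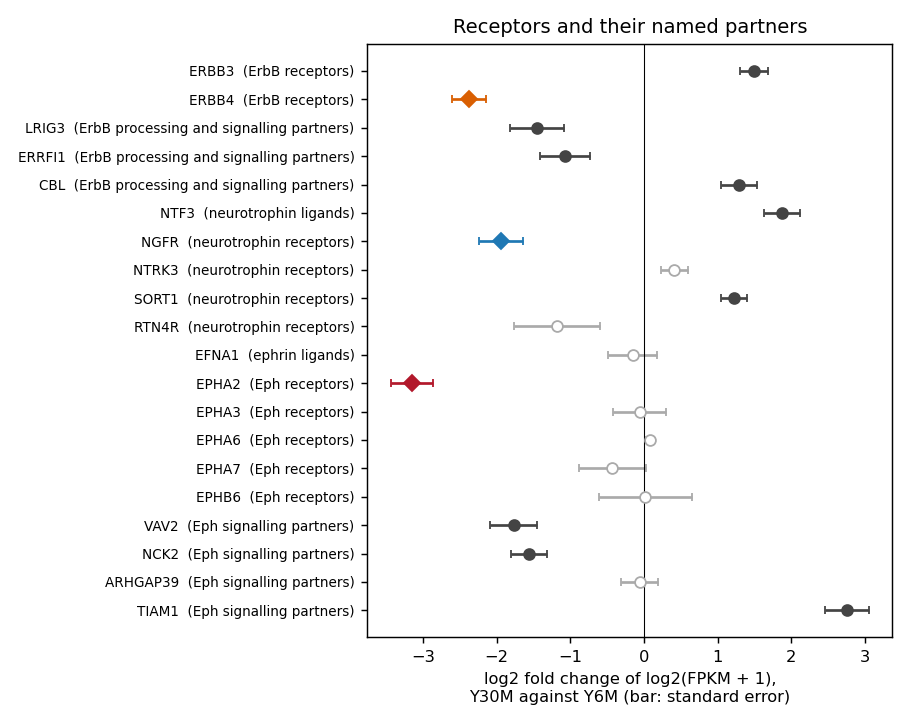
Log2 fold change of Y30M against Y6M on log2(FPKM + 1) for the receptors (coloured diamonds) and their 17 named partners (circles, filled where called), with the list each belongs to in brackets and bars of 1 standard error. ERBB3, CBL, NTF3, SORT1 and TIAM1 lie above zero among the called genes, and 8 open circles mark genes that were not called.

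Named markers of Sertoli, Leydig, endothelial and nerve cells fell as the receptors did, and their part in the results was not tested. Of the 11 markers with a name, 8 are named only in tables of genes picked for a difference, so that 8 called lower, beside 16.4% of all genes tested, is not independent evidence. All 3 named Sertoli cell markers of 13 listed (SOX9, FSHR and DHH) fell, and their summed level was 108 to 125 FPKM in Y6M and 25.7 to 45.3 FPKM in Y30M. The call of SOX9 (-0.94, limma adjusted p = 0.0273) was lost without both libraries of replicate 3 (adjusted p = 0.0811) and without any 1 of 4 single libraries. LHCGR, the 1 named Leydig cell marker of 8, was at 34.4 to 67.3 FPKM in Y6M and 1.44 to 5.37 FPKM in Y30M. The paper's tissue sections showed interstitial cells in greater number in the mature testis. The lower LHCGR level is therefore not to be read as fewer Leydig cells, which was not tested. The endothelial markers PECAM1, CDH5 and TEK, 3 of 5 listed, all fell, from a sum of 17.4 to 25.8 FPKM to one of 5.16 to 8.13 FPKM, although the call of TEK was lost on leaving out any 1 library other than Y30M replicate 2, and that of PECAM1 without both libraries of replicate 3 (adjusted p = 0.0568). NCAM1, the 1 named of 6 Schwann and nerve cell markers, went from 23.6 to 34.1 FPKM down to 8.26 to 10.6 FPKM. With FPKM rescaled to TPM, the calls of SOX9 (limma adjusted p = 0.0694) and TEK (adjusted p = 0.0511) were lost too.

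Among germ cell markers, GSG1 and SYCP3 moved the other way and HORMAD1 was not called. GSG1, the 1 named spermatid marker of 11, was at 0.588 to 1.09 FPKM in Y6M and at 442 to 1204 FPKM in Y30M. Of the spermatocyte markers, SYCP3 rose (log2 fold change 2.12, limma adjusted p = 0.0190) and HORMAD1 was not called (0.16), and together they summed to 8.47 to 28.0 FPKM and 13.2 to 68.0 FPKM. Both were highest in replicate 3 of each age. The call of SYCP3 was lost without Y6M replicate 1, Y6M replicate 2 or Y30M replicate 1 (adjusted p between 0.0585 and 0.0617). No marker listed for spermatogonia, peritubular cells, stromal cells or macrophages had a name that could be paired. The labelled tissue thus held markers of Sertoli, Leydig and germ cells.

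The named genes with profiles most like each receptor were found by the root-mean-square difference of centred log2(FPKM + 1) over the 6 libraries. Genes without a name were closer in most cases, so the rank among all genes tested is given too. For ERBB4 these were KCNN2 (0.151, rank 6), a calcium-activated potassium channel, PLS1 (0.162, rank 8), an actin-bundling protein, and NFIX (0.192, rank 20), a transcription factor. For NGFR they were DCLK3 (0.0699, rank 2), a kinase, DPF3 (0.0721, rank 3), a chromatin reader, and KRBA1 (0.105, rank 13). For EPHA2 they were FKBP10 (0.165, rank 16), a collagen chaperone, EMILIN1 (0.189, rank 28), an extracellular matrix glycoprotein, and DAG1 (0.190, rank 29), the dystroglycan precursor. Between the receptors themselves the differences were 0.381 between ERBB4 and NGFR (NGFR was at rank 403 for ERBB4), 0.494 between ERBB4 and EPHA2, and 0.606 between NGFR and EPHA2.

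DCLK3 shared with NGFR the dip of replicate 3 within the juveniles, at 33.9, 35.9 and 24.0 FPKM, followed by 8.75, 6.61 and 6.97 FPKM in Y30M. FKBP10 went from 45.2, 44.2 and 33.2 FPKM to 4.22, 2.30 and 2.40 FPKM, the same order of libraries as EPHA2 within the juveniles. KCNN2 went from 4.36, 3.87 and 4.45 FPKM to between 0.0703 and 0.207 FPKM.

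The m6A peaks are stretches where immunoprecipitated fragments were enriched over input. In the table of compared peaks they were called over both ages together, so they carry no replicate values and the reads behind them are not known. Positions are on LU_Bosgru_v3.0. The exon blocks of each peak are given by the table, and which part of the transcript a block belongs to was not analysed here. Over all peaks the median enrichment was 2.31-fold (quartiles 1.78 and 3), 69.0% of peaks had an enrichment FDR of at most 0.05, and 27.8% had an FDR of 1. The peaks with an FDR of 1 had a median enrichment of 2.16-fold, so the FDR did not simply follow the fold enrichment.

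ERBB4, on the plus strand of chromosome 2, had 1 peak, chr2:41164674-41164923, a single exon block of 250 bp. Its enrichment was 3.16-fold, as high as or higher than in 79.4% of all peaks, yet its FDR was 1. NGFR, on the plus strand of chromosome 19, had 2 neighbouring peaks. The first, chr19:29717922-29719581, held 997 exonic bp in 2 blocks and was enriched 3.44-fold. The second, chr19:29719831-29720429, was 1 block of 599 bp and was enriched 2.77-fold. Both NGFR peaks had an FDR of 5.01e-18 and were the only ones of the 6 with an FDR of at most 0.05.

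EPHA2, on the minus strand of chromosome 2, had 3 peaks spread over its locus, and 19.6% of the genes with any peak had 3 or more. The peak at chr2:186358-186952 was 595 bp long and enriched 2.57-fold. The peak at chr2:198622-198911, 199 exonic bp in 2 blocks, had the weakest enrichment of the 6, 1.33-fold, which only 4.08% of all peaks matched or fell below. The peak at chr2:213860-214008 was 149 bp long and enriched 2.38-fold. All 3 had an FDR of 1, so their enrichment over input is not shown by the peak caller's own test.

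**Figure D4:**
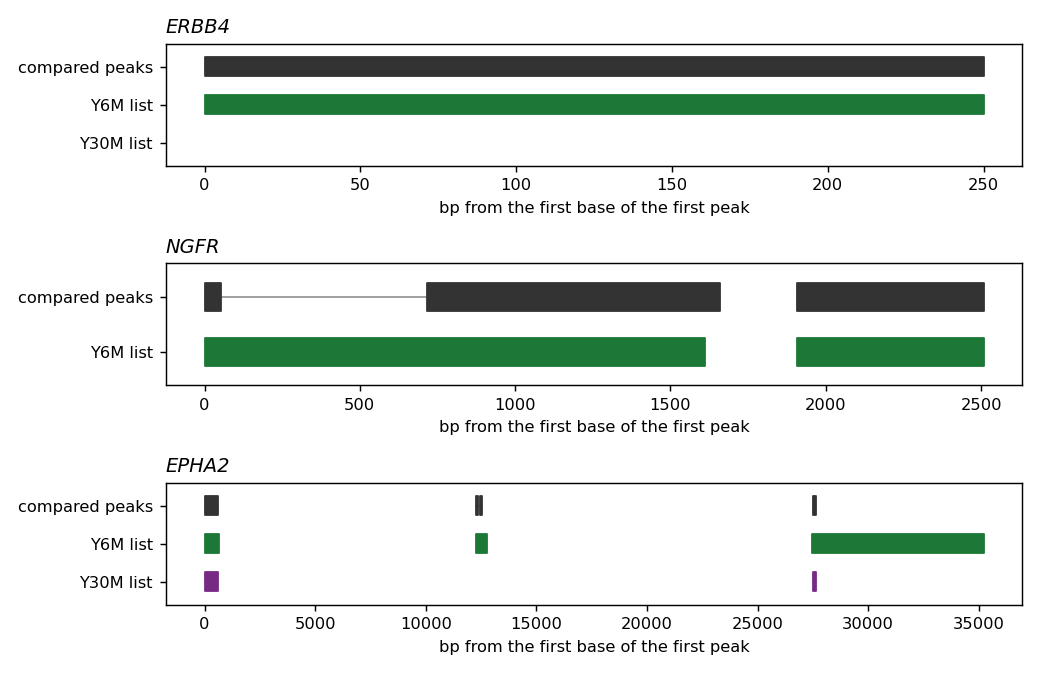
Peaks of each receptor along the genome, in bp from the first base of its first peak, with the exon blocks of the compared peaks in black and the peaks of the Y6M and Y30M lists in green and purple. ERBB4 has no Y30M peak, EPHA2 has 3 Y6M peaks and 2 Y30M peaks, and the NGFR panel has no Y30M row, since that list was used for chromosomes 1 and 2 alone.

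A separate list for each age gives the peaks called in that age, and within them a score between 0 and 1 for each adenosine that predicts methylation. The lowest score that was called a site was 0.528. The Y6M list covers all chromosomes, and the Y30M list used here covers chromosomes 1 and 2, so NGFR in Y30M was not analysed here. Each age has 1 list, so a peak in one list and not in the other has no replicate check. On chromosomes 1 and 2, 71.8% of the 1289 Y6M peaks shared at least 1 bp with a Y30M peak.

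The ERBB4 peak was in the Y6M list with the same ends as above and had no counterpart in the Y30M list, where the input libraries held 33 to 49 fragments of the gene. It contained 4 scored adenosines, of which 2 were called sites, at bases 41164815 (score 0.595) and 41164914 (score 0.584). All 3 EPHA2 peaks were in the Y6M list, and 2 of them overlapped a Y30M peak. The first of these had a single site in both lists, base 186800, with a score of 0.579 in each. The peak around base 198622 was in the Y6M list alone and held 6 scored adenosines with 1 site, base 199076 (score 0.565), which lies outside the blocks of the compared peak.

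Of the 2 EPHA2 peaks with a counterpart in both lists, the last differed more in length. It spanned 7763 bp in Y6M, from base 213810 to 221572, and 149 bp in Y30M, from base 213860 to 214008. The Y6M span held 161 scored adenosines, of which 100 (62.1%) were called sites and 10 were of very high confidence, with scores up to 0.746. Runs of scores recurred within it at the same spacing. Bases 217823, 217834 and 217845 scored 0.638, 0.595 and 0.746, and so did bases 218370, 218381 and 218392. The counts may therefore hold copies of a repeated stretch, and the sequence was not analysed here. Only 2 of the 161 lie inside the block of the compared peak, and the other 159, with 99 sites, lie in the added span, which may include introns. The Y30M peak had 2 scored adenosines and 1 site, at base 213958 with a score of 0.602.

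Called sites were found in each kilobase of the long Y6M peak, from 33.3% of scored adenosines between 2 and 3 kb to 77.3% between 3 and 4 kb from its start. Over the whole Y6M list 21.5% of scored adenosines were called sites. Of the 3725 Y6M peaks with at least 100 scored adenosines, 4 (0.107%) had 60% or more called, the EPHA2 peak among them, a limit chosen after its value was seen. Recurring runs of scores count as separate adenosines in the share of the EPHA2 peak. The median of those 3725 peaks was 19.3%.

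In Y6M, the first NGFR peak had 32 scored adenosines and 15 sites (46.9%), with a highest score of 0.690. Of these adenosines, 16 lay in the exon blocks (9 sites) and 16 between them (6 sites). The second NGFR peak was wholly exonic and had 9 scored adenosines and 7 sites (77.8%), with a highest score of 0.654. Over all receptors, 126 of 215 scored adenosines were called sites in Y6M, and 61 of them had a score of at least 0.6. Of the 126, 99 lie outside the compared block of the long EPHA2 peak, in a span that may include introns. In the Y30M list 5 adenosines of EPHA2 were scored and 2 were called sites.

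**Figure D5:**
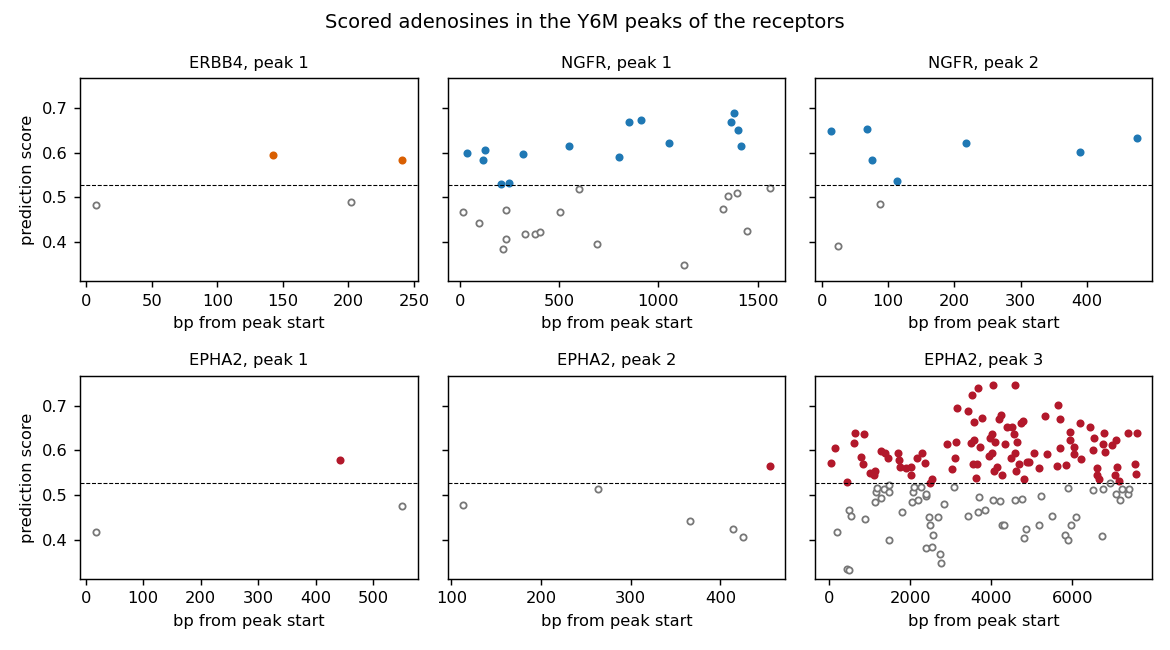
Prediction score of each scored adenosine (vertical) by its distance in bp from the start of its Y6M peak (horizontal), in 1 panel for each of the 6 Y6M peaks of the receptors. Filled points are at or above the lowest score called a site, 0.528 (dashed line), and the third EPHA2 panel holds 161 of the 215 points.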

How the data were processed

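The authors trimmed reads with Trimmomatic, removed ribosomal reads with SortMeRNA and aligned with HISAT2 to LU_Bosgru_v3.0. The submitters' processing notes also name deepTools. The tool behind the deposited FPKM values and the site predictor are not given in the sources used here. The authors called peaks with MeTDiff against input over replicates. The deposited table gives the enrichment as a fold ratio with its FDR as a log10 score, and the deposited site lists give a prediction score per adenosine. Columns of the authors' own comparison of the ages (fold change, p and FDR of each peak) were not used. The site lists carry no gene or strand, so genes were assigned by position. The Y30M list was used for chromosomes 1 and 2, and the rest was not analysed here.

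Genes above 0 FPKM in at least 1 library (19477 of 20953) were compared with limma 3.58.1 in R 4.3.3, with a mean-variance trend, on log2(FPKM + 1). P-values were adjusted by Benjamini-Hochberg over all genes tested. The same code was tested on simulated data, with changes planted only in genes of a higher mean level than ERBB4. That test therefore does not cover ERBB4. Exact permutation tests were two-sided and ran over libraries. Poisson intervals cover counting error only. Gene IDs were paired with symbols through names in the study's supplementary tables (2147 IDs), since the reference table paired none.

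The named genes were the receptors, their direct ligands and co-receptors, the most changed members of each pathway list, the 3 genes most like each receptor, and the most expressed markers of each list. Some further list members are named so that each list is complete, and were added with their values seen. The members and lists were chosen with earlier results of these data known. The ages are different animals and no label pairs them, so the main fit and the exact tests compared unpaired libraries. The replicate number was used as a block in an alternative fit only. Deviations from the group means correlated within numbers 1, 2 and 3 (0.209, 0.283 and 0.604). Y6M replicate 1 correlated more with Y30M replicate 2 (0.322), and deviations from a mean of 3 libraries are not independent of each other. A pairing by number is thus not established for any replicate. The fit on recovered fragments (limma-voom) was chosen after seeing the data.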

Additional observations from a re-analysis of the deposited data

How the results depend on the processing

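ERBB4, NGFR and EPHA2 kept their direction and their call in 16 of 16 alternatives each, with log2 fold changes from -4.41 to -2.24, from -2.62 to -1.80 and from -4.04 to -3.004, and a largest limma adjusted p of 0.00219, 0.0121 and 0.00178. The alternatives with the unadjusted p and with a change of at least 2-fold reuse the main fit. They could not lose these calls, since the receptors' main estimates already passed both limits. With the replicate number as a block, their adjusted p-values were 5.20e-04, 0.00194 and 2.41e-04, and of the partners named in the report the block changed the call of RTN4R alone. Leaving out 1 library at a time gave -2.46 to -2.25 for ERBB4, -2.10 to -1.85 for NGFR and -3.29 to -3.04 for EPHA2. In place of 4 partners called lower, 2 to 4 were called when 1 library was left out, with 2 of them without Y6M replicate 2. Differences within a library were also taken without both libraries of replicate 3, an alternative chosen for them after seeing the data. ERBB4 then moved by -3.75 relative to ERBB3, and NGFR by -2.33 relative to the mean of NTRK3, SORT1 and RTN4R. EPHA2 moved by -3.04 relative to the mean of EPHA3, EPHA6, EPHA7 and EPHB6. The change of ERBB4 relative to EPHA2 reversed to -0.10 with a pseudocount of 0.1. Of the 6 compared peaks, 2 had an enrichment FDR of at most 0.05. Of the 2 peaks shared by the lists, 1 remained at an overlap of 50%, and 61 of 126 sites had a score of at least 0.6. Of the 126, 99 lie outside the compared block of the long EPHA2 peak.

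Of the named genes with no call, EFNA1, EPHA3, EPHA6, EPHB6, ARHGAP39 and HORMAD1 changed sign in some alternatives. NTRK3, RTN4R, EPHA7 and YTHDF2 kept their sign in all of them. With FPKM rescaled to TPM, EFNA1 was at 0.014, EPHA3 at 0.051 and ARHGAP39 at 0.12. Without both libraries of replicate 3, EPHA6 was at -0.00014, EPHB6 at -0.36, ARHGAP39 at 0.024 and HORMAD1 at -0.0985. EPHB6 was at -0.092 with median-of-ratios scaling and -0.089 on recovered fragments. Leaving out 1 library gave -0.45 to 0.10 for EFNA1, -0.31 to 0.26 for EPHA3, -0.61 to 0.47 for EPHB6, -0.20 to 0.13 for ARHGAP39 and -0.53 to 0.67 for HORMAD1. The causes were not tested. Over the single genes named, 588 of 638 alternative values kept direction and call. Depth limits ERBB4 most, with 33 to 49 fragments per Y30M library. Peak and site values have no replicate error.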

Other observations

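Of 20 listed writers, erasers and readers of m6A, 3 readers had a name. For 2 of them the name came only from tables of genes picked for a difference, so their values are not independent evidence. IGF2BP2, an RNA-binding protein that stabilises marked transcripts, fell from 22.4 to 5.90 FPKM (log2 fold change -1.79, limma adjusted p = 0.00138), whereas its relative IGF2BP3 rose from 0.730 to 2.55 FPKM (1.02, adjusted p = 0.00962). YTHDF2 is a reader that promotes decay of marked transcripts. It measured 17.2, 18.8 and 21.4 FPKM in the juveniles and 29.1, 23.2 and 28.3 FPKM in the mature yaks. It was not called (0.47, limma adjusted p = 0.102), but was called with FPKM rescaled to TPM (0.64, limma adjusted p = 0.0395). By qRT-PCR, the paper found every reader it measured, YTHDF2 among them, significantly higher in the mature testis.

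Of the 17 named partners, 16 had at least 1 peak in the table of compared peaks, 32 peaks in all. Their names came from the study's own tables, peak tables included, so this share is not evidence about the partners. Of the 32 peaks, 25 had an enrichment FDR of at most 0.05 and 7 had an FDR of 1. TIAM1 had 2 peaks, enriched 3.81 and 4.10-fold, both with an FDR of 1. NTF3 had 1 peak, chr5:111949208-111949890, enriched 4.65-fold over input (FDR 3.98e-16). ERBB3 had 1 peak, chr5:47626627-47626866, enriched 2.20-fold (FDR 6.31e-04). The ligand EFNA1 had 1 peak, chr3:1705280-1705670, enriched 3.72-fold (FDR 1.32e-06).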
